A study of Mus musculus with 4 samples.

Results

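The respiratory chain of mitochondria passes electrons through complexes I to IV to oxygen and pumps protons, and complex V, the ATP synthase, uses the proton gradient to make ATP. Its subunits are encoded in 2 genomes. In these data the chain was followed with every gene of the deposited count table whose symbol starts with Nduf, Uqcr, Cox4 to Cox8, Atp5, Sdh, mt-Nd, mt-Co, mt-Atp or mt-Cytb, with pseudogene entries left out. This rule used names only, no measured value, and found 106 genes of 15746. Of these, 93 are nuclear genes (36 of complex I, 4 of complex II, 8 of complex III, 17 of complex IV, 16 of complex V, 8 complex I assembly factors named Ndufaf and 4 complex II assembly factors named Sdhaf). The other 13 are all the protein-coding genes of the mitochondrial genome, with 7 for complex I, 1 for complex III, 3 for complex IV and 2 for complex V. Assembly factors do not end up in the finished complex. The gene Ndufa4 and its relative Ndufa4l2 carry complex I names but their products belong with complex IV, and they were counted there.

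The measurements are single-cell RNA sequencing of mouse Achilles tendon, the tendon between the calf muscles and the heel, in 4 droplet libraries that form 1 group: male C57Bl/6 mice, 6 weeks old, with no treatment or allele named. Whether a library holds cells of 1 mouse or of several is not stated in the labels, so p-values measure the spread between libraries, which may be partly technical. The table holds 1191 cells (580, 246, 256 and 109 in libraries 1 to 4), with a median of 7440 to 8824 unique molecular identifiers (UMIs, 1 per captured transcript) per cell, and no cell barcode was shared between libraries. The cells carry 13 population names given by the authors, and the comparisons below are between those populations within libraries. Each set of defining markers was highest under the matching name: 5 endothelial genes summed to 0.578% of UMIs in endothelial cells 1 (0.458% in population 2), 9 pericyte and smooth muscle genes to 1.86% in pericytes, 9 tendon fibroblast genes to 13.5% in tendon fibroblasts 1, 8 macrophage genes to 1.41% in immune cells, 7 Schwann cell genes to 7.83% in nerve cells 1, and 6 red blood cell genes to 94.7% in red blood cells. The weakest match was nerve cells 3, where the Schwann cell genes reached 0.864%. Markers of skeletal muscle, the respiring tissue next to the tendon, were at 0.00211% or less in every population.

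As background, the nuclear subunits of the chain are translated in the cytosol and imported, while the 13 mitochondrial ones are transcribed from a small circular genome and translated inside the organelle. Some complex IV subunits exist in more than 1 form: Cox4i1 is the usual form of subunit 4, and Cox4i2 is known from lung, vessels and the response to low oxygen. Ndufa4l2 is known as a gene that rises under low oxygen, and Ndufa4 is its usual counterpart. Many nuclear chain genes are known targets of the factor NRF1 and of ETS factors such as GABP.

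Promoters were taken from RefSeq (GRCm38.p6), which matched 79 of the 93 nuclear genes by symbol. The full NRF1 palindrome GCGCATGCGC lay in the 250 bases before the transcription start of 5 of these 79 genes (6.33%), against 1.71% of the 11634 genes of the count table that have a promoter and 0.877% of all 27025 genes with one. An ETS site CCGGAAG lay in 16 of the 79 (20.3%), against 14.1% and 7.83%. The letters TATAAA, counted at any position of the 250 bases, lay in 5 of the 79 (6.33%), against 8.44% and 14.3%. The palindrome reads alike on both strands, the other motifs were searched on both, and the letters of the palindrome and the ETS site could overlap only at their ends. The 5 windows below, 40 bases each and written 5′ to 3′ on the gene's strand, show the palindrome in capitals. The genes encode 2 complex V subunits (Atp5g2, of the membrane ring, and Atp5k), the complex IV subunit Cox6a1, the complex I subunit Ndufa11 and the complex I assembly factor Ndufaf4. A match is a description of these letters and not evidence of binding.
Atp5g2, chr15:102671065-102671104, minus strand: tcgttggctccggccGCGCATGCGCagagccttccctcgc
Atp5k, chr5:108434425-108434464, minus strand: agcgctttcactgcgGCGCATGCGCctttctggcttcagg
Cox6a1, chr5:115349096-115349135, minus strand: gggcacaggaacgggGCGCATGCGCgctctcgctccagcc
Ndufa11, chr17:56717687-56717726, plus strand: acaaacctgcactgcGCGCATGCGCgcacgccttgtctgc
Ndufaf4, chr4:24897955-24897994, plus strand: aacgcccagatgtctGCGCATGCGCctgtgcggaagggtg

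The chain's transcripts were most abundant in pericytes, the contractile cells that wrap small vessels, by both of its genomes. The 93 nuclear genes together made up 1.92% ± 0.31 of UMIs in pericytes (SD, n = 4 libraries), with 2.13%, 2.10%, 1.47% and 1.98% in libraries 1 to 4. In endothelial cells 1 the same sum was 1.40% ± 0.04 (n = 4), and its libraries lay between 1.36% and 1.45%, so that all 4 pericyte values were above all 4 endothelial values, library 3 by a small margin. Endothelial cells 2 stood at 1.25% ± 0.11 (n = 4), immune cells at 1.43% ± 0.41 (n = 3), bursal fibroblasts at 1.30% ± 0.29 (n = 3), and tendon fibroblasts 2 at 1.14% ± 0.09 (n = 3). Tendon fibroblasts 1 had the lowest sum of the populations with a nucleus, 0.909% ± 0.033 (n = 4), and its highest library, 0.949%, was below the lowest library of endothelial cells 1 and 2 and of tendon fibroblasts 2, though not below the lowest library of nerve cells 1 (0.830%). Nerve cells 1, 2 and 3 stood at 1.02%, 1.17% and 1.16%, and their libraries overlapped with each other. The immune value has a wide spread because library 2, with 10 immune cells, stood at 0.96%, against 1.64% and 1.70% in libraries 1 and 3.

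The 13 mitochondrial genes together took a larger part of the RNA and ordered the populations differently. They made up 7.89% ± 0.44 of UMIs in pericytes (n = 4) and 7.10% ± 0.22 in nerve cells 1 (n = 3), with no library of either below 6.95%. Among populations with at least 3 libraries, endothelial cells 2 followed with 6.21% ± 1.22 (n = 4), then immune cells with 4.83% ± 0.60 (n = 3), endothelial cells 1 with 4.77% ± 0.61 (n = 4), nerve cells 3 with 4.69% ± 0.73 and bursal fibroblasts with 4.63% ± 0.54 (both n = 3), tendon fibroblasts 2 with 4.36% ± 0.48 (n = 3) and tendon fibroblasts 1 with 4.03% ± 0.55 (n = 4). Neighbours in the order from immune cells to tendon fibroblasts 1 did not differ beyond their spread, and with the mean over cells in place of the summed counts endothelial cells 1 (5.80%) stood above immune cells (5.31%). With fewer libraries, endothelial cells 3 had 5.84%, nerve cells 2 had 3.75% and tendon fibroblasts 3 had 3.48%. Nerve cells 1 were the population whose nuclear and mitochondrial sums stood furthest apart, apart from red blood cells: the mitochondrial sum was 7.15 ± 1.52 times the nuclear one (n = 3, 5.92 to 8.85), against 3.41 ± 0.42 in endothelial cells 1 (n = 4, 3.00 to 3.83) and 4.21 ± 0.87 in pericytes (n = 4). The deposited cells end at a mitochondrial share of 19.99% per cell, a limit that 31 cells approached at 15% or more. Those were 2.80% of pericytes, 4.21% of endothelial cells 1 and 4.08% of nerve cells 1.

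**Figure D1:**
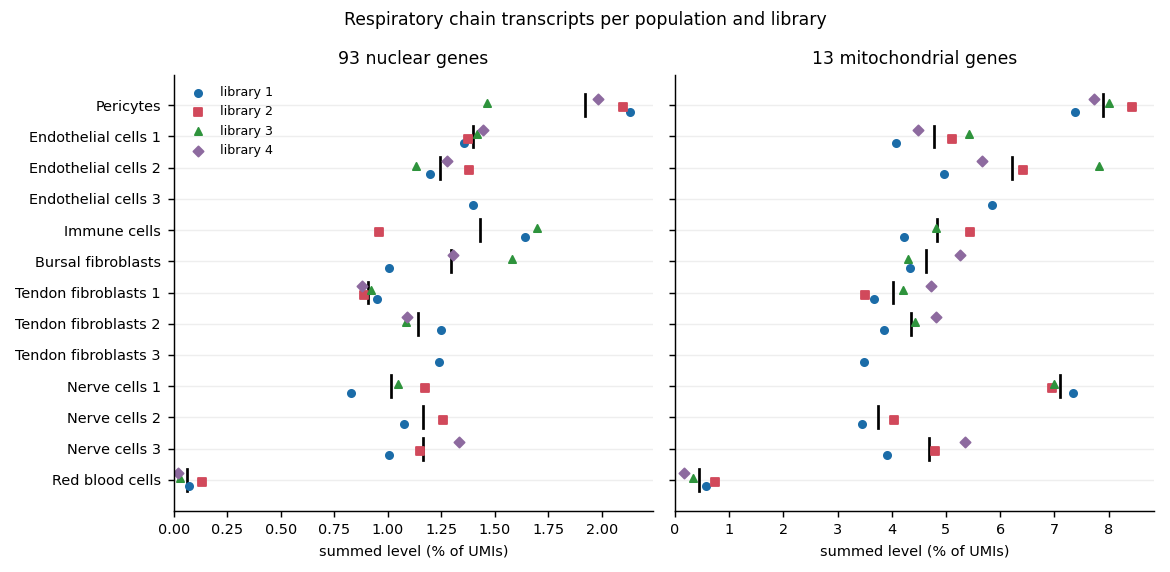
Summed level of the 93 nuclear genes (left) and the 13 mitochondrial genes (right) in percent of UMIs, for each population (rows) and library (points). Vertical bars are means over libraries with 5 or more cells. Pericytes are highest in both panels, nerve cells 1 are high on the right but not on the left, and red blood cells are near 0 in both.

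Gene by gene the order was much the same. Over the 10 populations with at least 3 libraries, 54 of the 93 nuclear genes had their highest mean level in pericytes, 9 in immune cells, 8 in endothelial cells 1 and 7 in nerve cells 1. With red blood cells set aside, 42 of the 93 had their lowest level in tendon fibroblasts 1 and 26 in nerve cells 1. Of the 13 mitochondrial genes, 7 were highest in pericytes and 6 in nerve cells 1. The same counts were not made for genes outside the chain, so they show no excess of the chain over other genes. In CPM 3042 of all 5821 genes tested were lower in tendon fibroblasts 1 than in endothelial cells 1 in every library. A gene at 0 in several populations, such as Cox4i2, was assigned to only 1 of them as the lowest. In each library and population a gene's level is given in CPM, its UMIs scaled to a common total for each sum, which for these 3-prime tags counts transcripts without regard to their length. The most abundant nuclear members in endothelial cells 1 were the complex IV genes Cox6c, Cox4i1 and Cox7c, at 552, 535 and 509 CPM, while mt-Co1, the catalytic subunit of complex IV, stood at 9406 CPM there.

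The mitochondrial transcripts did not keep the same proportions in every population. In endothelial cells 1 mt-Co1 made up 19.8% ± 0.9 of the UMIs of the 13 genes (n = 4), and in pericytes 18.2% ± 0.4 (n = 4). In nerve cells 1 it was 13% ± 0.4 (n = 3, 12.6% to 13.4%), below every library of the other populations, of which nerve cells 2 came nearest with 15.9% and 17.2% in its 2 libraries. The gene mt-Cytb, the only mitochondrial subunit of complex III, went the other way, at 12% ± 0.5 in nerve cells 1, 11% in nerve cells 2 and 10.1% ± 0.9 in pericytes, against 7.67% ± 0.23 in endothelial cells 1 and 6.28% ± 0.30 in immune cells. In nerve cells 1 the complex I gene mt-Nd4 was also high, at 10.5% ± 1.4, against 7.57% ± 0.54 in endothelial cells 1. This was not particular to nerve cells 1, whose lowest library was at 9.71%. Nerve cells 2 reached 10.4% and pericytes 10.1% in their highest libraries. By contrast mt-Atp6 held a similar share in these populations, with 19.2% ± 0.7 in nerve cells 1 and 19.5% ± 0.7 in endothelial cells 1. These shares were described and not tested. Since mt-Atp8 overlaps mt-Atp6 and mt-Nd4l overlaps mt-Nd4 on shared transcripts, the counts within each of those pairs cannot be fully separated.

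**Figure D2:**
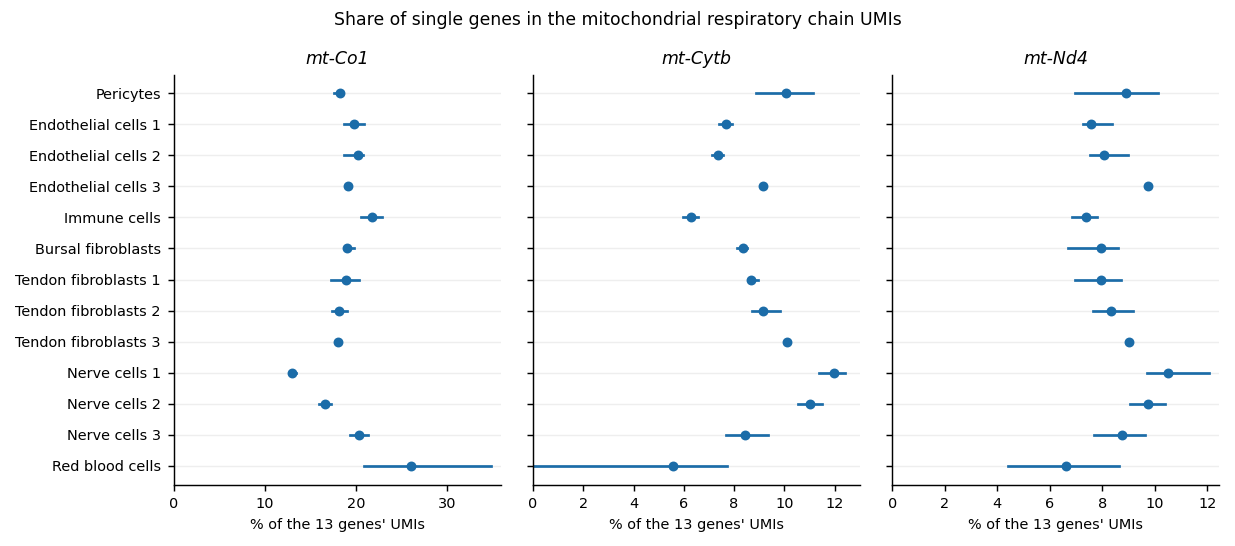
Share of mt-Co1, mt-Cytb and mt-Nd4 in the UMIs of the 13 mitochondrial genes (percent, x axis) by population (rows). Points are means and lines run from the lowest to the highest library. Nerve cells 1 have the lowest share of mt-Co1 (13%) and the highest of mt-Cytb (12%).

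Pericytes and endothelial cells 1, the 2 cell types of the vessel wall with the most cells here, were compared within libraries. Of the 79 nuclear genes that passed the filter on low counts, 47 rose in pericytes and 3 fell (adjusted p under 0.05 by the quasi-likelihood test of edgeR). Among all 5493 genes tested, 16.6% rose and 17.6% fell. The median log2 fold change of the 79 was 0.72, against -0.01 over all genes tested. By complex, 25 of 36 tested genes of complex I rose, 5 of 8 of complex III, 8 of 15 of complex V, 6 of 14 of complex IV and 2 of 4 of complex II. Of the 13 mitochondrial genes 12 rose and none fell, with a median log2 fold change of 0.82. The count of nuclear genes called depended on which library was left out: it was 21, 28 and 33 without library 1, 2 or 4, and 59 without library 3. It was 30 with DESeq2 and 16 on cells thinned to equal depth. In a joint fit of all populations, which shares 1 estimate of the spread, 29 nuclear genes rose and 3 fell, but 1 mitochondrial gene rose. The counts under these other settings are given without the share of all genes called there. They show how many calls remained, not how far the excess over all genes held.

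Library 3 stood apart in the pericytes. There the nuclear sum was the lowest of the 4, and the 5 endothelial markers summed to 0.165% of UMIs, against 0.0365% to 0.0963% in the other libraries. The pericyte markers were lowest there as well, at 1.49%, against 1.72% to 2.3%. The mitochondrial sum of pericytes was not low in library 3, at 8.01%, against 7.38%, 8.43% and 7.73% in libraries 1, 2 and 4. Genes that respond to tissue dissociation also moved with the comparison, with a sum of 1.18% ± 0.34 of UMIs in pericytes and 0.783% ± 0.186 in endothelial cells 1. The part of these markers in the differences was not tested.

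The largest rises among the nuclear genes of pericytes were in the alternative complex IV forms Cox4i2 and Ndufa4l2, described further on. Among genes with a rise in every library they were followed by Sdhc, a membrane anchor of complex II (succinate dehydrogenase), at 162, 195, 108 and 88.3 CPM in libraries 1 to 4 of pericytes and 57.4, 41.6, 26.4 and 51.6 CPM in endothelial cells 1. The groups did not overlap, and the log2 fold change was 1.76 ± 0.27 (SE, edgeR adjusted p = 5.52e-04). Ndufb9, a membrane-arm subunit of complex I, stood at 405 ± 61.1 CPM in pericytes and 168 ± 17.1 CPM in endothelial cells 1 (SD, n = 4), higher in 4 of 4 libraries, with a log2 fold change of 1.40 ± 0.18 (edgeR adjusted p = 1.77e-04). Cox8a, a small complex IV subunit, was at 905 ± 246 against 428 ± 38.3 CPM, and Atp5b, the catalytic beta subunit of ATP synthase, at 700 ± 110 against 349 ± 37.6 CPM, both called and both without overlap between the groups.

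Complex II has no mitochondrial subunit, and its 4 genes did not move alike in pericytes. The flavoprotein gene Sdha rose with a log2 fold change of 0.80 ± 0.19 (edgeR adjusted p = 0.00808), a call lost under 3 of 10 other settings, among them the fit without library 1, while the iron-sulfur subunit Sdhb, at 87.0 ± 16.2 against 69.2 ± 27.4 CPM, and the second anchor Sdhd, at 52.9 ± 12.5 against 50.4 ± 2.32 CPM, did not pass the test. Among the common forms of complex IV subunits, Cox4i1 passed by a narrow margin (log2 fold change 0.53 ± 0.18, edgeR adjusted p = 0.0473) and lost the call under 9 of 11 other settings. Cox6a1 passed as narrowly (edgeR adjusted p = 0.0497), with overlapping groups and a higher level in 3 of 4 libraries. Cox6b1, Cox7a2, Cox7a2l and Cox7b did not pass.

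The 12 mitochondrial genes that rose in pericytes had log2 fold changes from 0.45 to 1.25. The gene mt-Cytb had 7487, 9385, 7099 and 7840 CPM in libraries 1 to 4 of pericytes and 3171, 4059, 4096 and 3326 CPM in endothelial cells 1, with no overlap and a log2 fold change of 1.25 ± 0.14 (edgeR adjusted p = 8.33e-05). For mt-Nd4l and mt-Nd4 the log2 fold changes were 1.16 ± 0.17 and 1.08 ± 0.16, and for mt-Co3, a core subunit of complex IV, 0.97 ± 0.12. At the low end, mt-Nd1 rose by 0.45 ± 0.13, and mt-Atp8 did not pass (0.40 ± 0.16, edgeR adjusted p = 0.0886). The joint fit kept none of the calls of mt-Cytb, mt-Nd4 and mt-Co3 (adjusted p = 0.107, 0.135 and 0.191), with log2 fold changes within the range of the other settings.

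**Figure D3:**
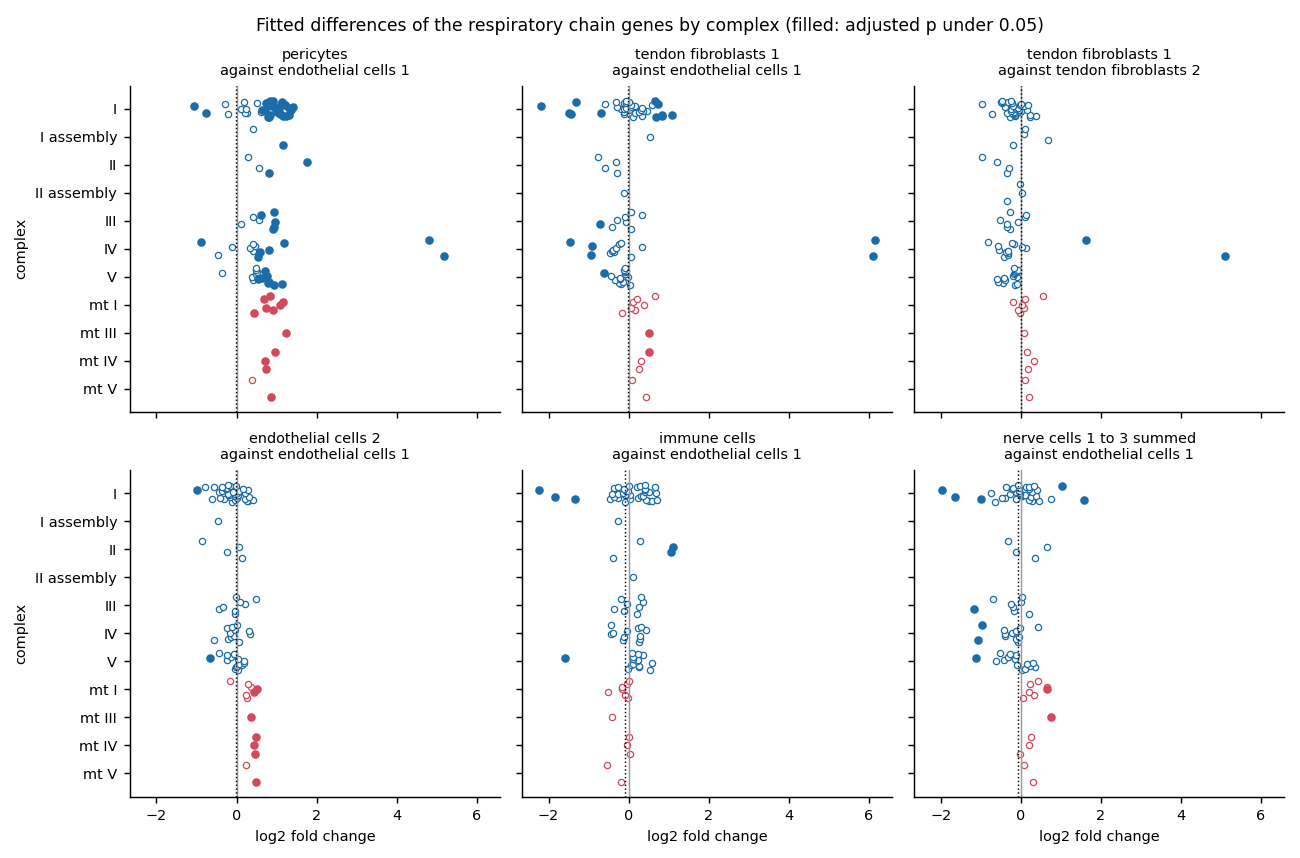
Fitted log2 fold change (x axis) of each tested gene by complex (rows, nuclear in blue, mitochondrial marked mt in red) in 6 comparisons. Filled points have an adjusted p under 0.05, open points do not, and the dotted line is the median of all genes tested. In pericytes most filled points lie above 0, with 47 nuclear and 12 mitochondrial genes called higher, and the 2 points furthest right in complex IV are Cox4i2 and Ndufa4l2.

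Genes outside the chain that belong to the same metabolism were read beside it. Of 14 citric acid cycle genes, all of which were tested, 8 rose in pericytes and none fell, with a median log2 fold change of 0.96. Idh2, the NADP-dependent isocitrate dehydrogenase of mitochondria, had the largest of them (2.14, edgeR adjusted p = 0.00104), in 3 of 4 libraries and with overlapping groups. Of 12 glycolysis genes tested, 7 rose and none fell (median 0.57). Of 7 tested genes for electron carriers and for assembly factors outside the name rule, 2 rose, Cyc1, which encodes cytochrome c1 of complex III, and Cycs, which encodes the cytochrome c that carries electrons from complex III to complex IV. None of the 3 tested regulators of mitochondrial genes was called.

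In pericytes 3 nuclear genes fell against the many that rose: Ndufc2 and Ndufa8, small subunits of complex I, and Ndufa4. The first was high in endothelial cells 1 and lower in each other population compared. Ndufc2 stood at 372, 335, 369 and 371 CPM in libraries 1 to 4 of endothelial cells 1, a mean of 362 ± 18 CPM (n = 4). It was at 174 ± 72.8 CPM in pericytes, 173 ± 33.3 CPM in endothelial cells 2 (both n = 4), 75.5 ± 13.4 CPM in immune cells (n = 3), 94.2 ± 53.0 CPM in the nerve cells summed and 50.1 ± 15.7 CPM in tendon fibroblasts 1 (both n = 4). None of these groups overlapped with endothelial cells 1. The edgeR log2 fold changes against endothelial cells 1, which all share its libraries, were -1.06 ± 0.21, -0.98 ± 0.20, -2.24 ± 0.40, -1.97 ± 0.32 and -2.20 ± 0.21 in that order, with adjusted p = 0.00254, 0.00162, 9.26e-06, 0.00108 and 5.19e-09. These calls stayed under every other setting that was run. In pericytes library 3, where endothelial markers were highest, Ndufc2 was at 282 CPM, against 128 to 146 CPM in the other libraries. In red blood cells Ndufc2 had 0 UMIs against 722 in endothelial cells 1. With the floor of 3 counts set over all libraries, it was at least 88.6-fold lower there as a share of all UMIs. Most of those UMIs were hemoglobin. With hemoglobin genes left out of the totals, the nuclear sum of red blood cells went from 0.0636% to 1.03%. The bound for Ndufc2 on that scale was not computed and would be much smaller.

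Ndufa8, Ndufa3 and Atp5j, a subunit of the ATP synthase stalk, fell against endothelial cells 1 in some of these populations but not in all. Ndufa8 had 211, 245, 269 and 293 CPM in endothelial cells 1 and 285 ± 104 CPM in endothelial cells 2 (n = 4), a difference that did not pass the test (log2 fold change 0.30 ± 0.20). It fell in pericytes (132 ± 23.7 CPM), tendon fibroblasts 1 (58.1 ± 21.2 CPM), immune cells (52.4 ± 37.3 CPM, n = 3) and the nerve cells summed (84.4 ± 41.3 CPM), and each of these 4 differences passed the test, that of pericytes with adjusted p = 0.0120 and lost under 2 of 11 other settings. Ndufa3 fell in tendon fibroblasts 1, immune cells and nerve cells, to 40.4, 51.0 and 64.6 CPM from 157 ± 32.8 CPM, in nerve cells with overlapping groups (edgeR adjusted p = 0.0466). Its immune call was lost under 4 of 10 other settings, among them those without library 1 or 3. Atp5j, at 481 ± 62.3 CPM in endothelial cells 1, fell in endothelial cells 2 (271 ± 61.6 CPM), immune cells (162 ± 102 CPM, n = 3), nerve cells (199 ± 34.9 CPM) and tendon fibroblasts 1 (213 ± 28.1 CPM). The call of Atp5j in endothelial cells 2 was lost under 5 of 12 other settings, and in nerve cells without library 1 or 3. In pericytes Ndufa3 and Atp5j did not pass (log2 fold changes -0.22 ± 0.20 and -0.36 ± 0.24). The bases before the starts of Ndufc2, Ndufa8, Ndufa3 and Atp5j are shown because all 4 fell in tendon fibroblasts 1, immune cells and nerve cells. A TATAAA match in Ndufa3 and an ETS match CCGGAAG in Atp5j are in capitals, and none of the 3 motifs has a complete match in the windows of Ndufc2 and Ndufa8. RefSeq lists 2 starts for Atp5j; the window shown is that of the second, and the first holds no match.
Ndufc2, chr7:97399753-97400002, plus strand: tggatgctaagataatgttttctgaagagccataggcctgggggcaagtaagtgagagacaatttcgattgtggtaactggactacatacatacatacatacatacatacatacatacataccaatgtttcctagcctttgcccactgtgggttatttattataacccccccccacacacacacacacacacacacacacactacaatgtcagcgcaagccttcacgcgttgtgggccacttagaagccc
Ndufa8, chr2:36049339-36049588, minus strand: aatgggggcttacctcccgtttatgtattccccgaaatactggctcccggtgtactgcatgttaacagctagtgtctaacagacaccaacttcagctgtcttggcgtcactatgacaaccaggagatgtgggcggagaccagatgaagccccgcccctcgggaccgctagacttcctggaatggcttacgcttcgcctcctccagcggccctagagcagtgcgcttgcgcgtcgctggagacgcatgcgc
Ndufa3, chr7:3617123-3617372, plus strand: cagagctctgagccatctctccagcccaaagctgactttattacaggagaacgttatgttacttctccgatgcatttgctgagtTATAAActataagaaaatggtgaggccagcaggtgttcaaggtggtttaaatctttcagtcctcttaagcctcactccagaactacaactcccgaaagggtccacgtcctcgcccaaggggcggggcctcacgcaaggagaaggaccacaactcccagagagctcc
Atp5j, chr16:84834977-84835226, minus strand: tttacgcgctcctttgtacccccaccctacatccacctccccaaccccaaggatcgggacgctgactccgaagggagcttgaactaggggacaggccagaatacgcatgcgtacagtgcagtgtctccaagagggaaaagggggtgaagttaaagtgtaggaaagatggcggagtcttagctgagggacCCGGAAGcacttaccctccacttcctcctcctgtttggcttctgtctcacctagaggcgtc

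**Figure D4:**
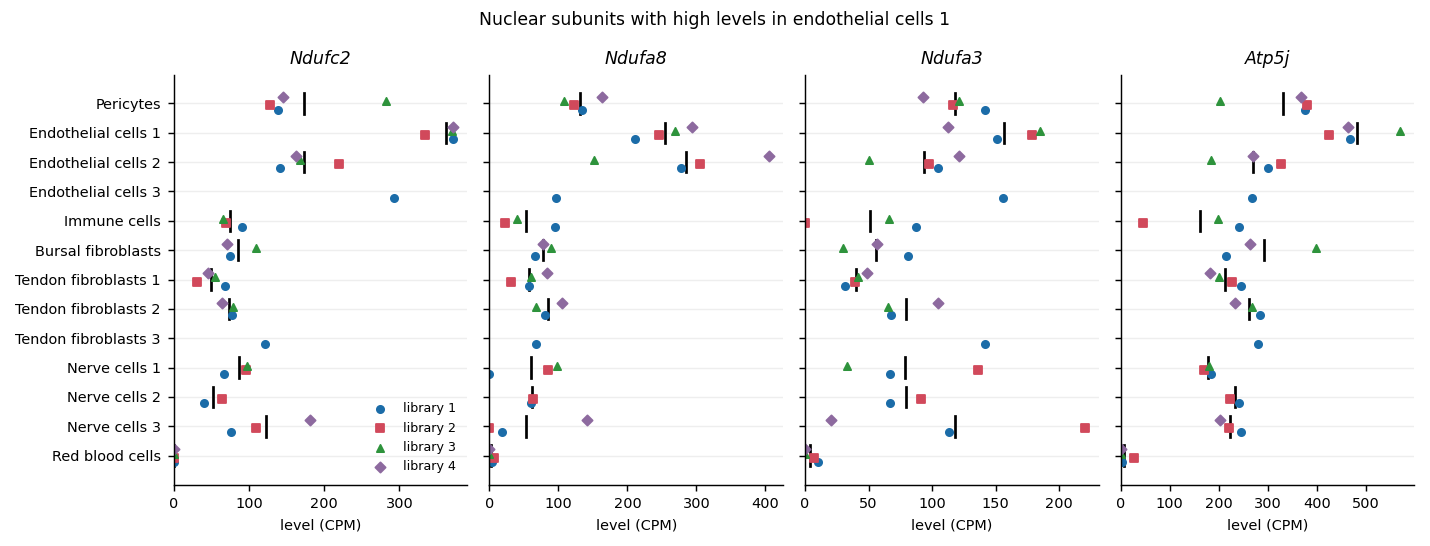
Level of Ndufc2, Ndufa8, Ndufa3 and Atp5j in CPM (x axes, different ranges) by population (rows) and library (points), with means as bars. Endothelial cells 1 lie at 335 to 372 CPM for Ndufc2, above every library of the other populations.

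The alternative forms of 2 complex IV subunits were abundant in few populations. Cox4i2 stood at 98.1, 90.4, 108 and 159 CPM in libraries 1 to 4 of pericytes and at 205, 125, 108 and 71.7 CPM in tendon fibroblasts 1. It was at 2.31 ± 1.73 CPM in endothelial cells 1 (n = 4) and 3.14 ± 4.38 CPM in tendon fibroblasts 2 (n = 3), and had 0 UMIs in bursal fibroblasts, endothelial cells 3, tendon fibroblasts 3 and the nerve cells. The 0 in 127 nerve cells allows a share of up to 2.36% of cells with a UMI, counting error only. Pericytes and tendon fibroblasts 1 overlapped with each other and lay above every library of all other populations. The log2 fold change was 5.18 ± 0.38 in pericytes against endothelial cells 1 (edgeR adjusted p = 7.29e-06), 6.10 ± 0.38 in tendon fibroblasts 1 against endothelial cells 1 (adjusted p = 4.33e-12), and 5.10 ± 0.55 in tendon fibroblasts 1 against 2 (adjusted p = 4.88e-04). The lower side held only 6 UMIs in endothelial cells 1 and 8 in tendon fibroblasts 2. Cox4i2 thus passed the low-count filter through the population where it is high, and the size of these fold changes rests on few counts. The usual form Cox4i1 remained the more abundant in both populations, at 703 ± 97.4 CPM in pericytes and 382 ± 63.4 CPM in tendon fibroblasts 1 (n = 4).

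Ndufa4l2 reached further into the fibroblasts. It stood at 748, 602, 608 and 464 CPM in libraries 1 to 4 of tendon fibroblasts 1, at 338, 277, 403 and 327 CPM in pericytes, and at 123, 430 and 201 CPM in libraries 1, 3 and 4 of tendon fibroblasts 2. Tendon fibroblasts 3, with 1 library of 5 or more cells, stood at 142 CPM. Every library of endothelial cells 1 was at 19.3 CPM or less, and the nerve cells and the red blood cells had 0 UMIs. Its log2 fold change was 4.81 ± 0.40 in pericytes (edgeR adjusted p = 1.34e-05) and 6.16 ± 0.34 in tendon fibroblasts 1 (adjusted p = 4.09e-13), both against endothelial cells 1. Against tendon fibroblasts 2 it was 1.62 ± 0.40 in tendon fibroblasts 1 (adjusted p = 0.0380). That last call was lost under 3 of 10 other settings, among them the fits without library 1 and without library 4.

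Its counterpart Ndufa4 ran the other way. It was at 389 ± 31.8 CPM in endothelial cells 1, 186 ± 40.2 CPM in pericytes and 97.6 ± 23.0 CPM in tendon fibroblasts 1 (n = 4 each), and none of the 3 groups overlapped with another. The log2 fold changes against endothelial cells 1 were -0.89 ± 0.22 in pericytes (edgeR adjusted p = 0.00939) and -1.46 ± 0.20 in tendon fibroblasts 1 (adjusted p = 1.20e-06). The pericyte call was lost without library 4. In the nerve cells summed it fell as well, by 0.96 ± 0.26 on the log2 scale (adjusted p = 0.0185). In tendon fibroblasts 1 Ndufa4l2 thus had more UMIs than Ndufa4 in every library, 1121 against 160 in all, and in endothelial cells 1 it had 27 against 748. Tendon fibroblasts 2, with Ndufa4 at 189 ± 22.2 CPM and Ndufa4l2 at 251 ± 160 CPM (n = 3), lay between. Nerve cells 1 had Ndufa4 at 181 ± 31.2 CPM (n = 3) and no UMI of Ndufa4l2.

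**Figure D5:**
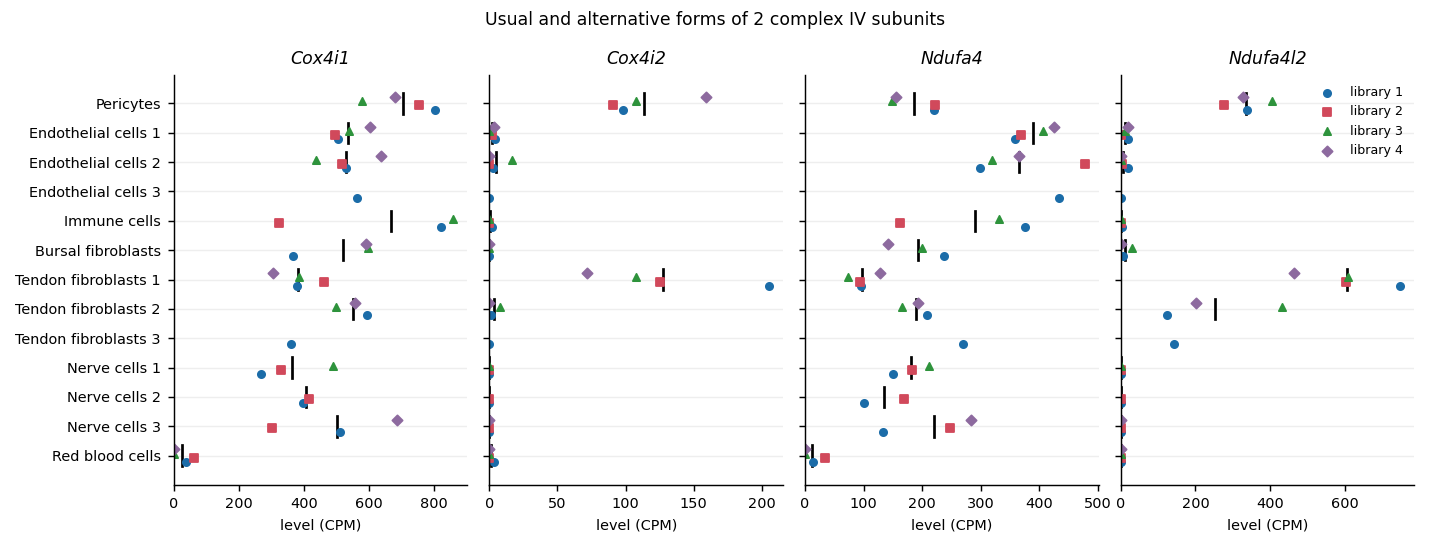
Level of Cox4i1, Cox4i2, Ndufa4 and Ndufa4l2 in CPM (x axes, different ranges) by population (rows) and library (points), with means as bars. Cox4i2 is near 0 outside pericytes and tendon fibroblasts 1, and Ndufa4l2 is high in those and in tendon fibroblasts 2 and 3.

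The same pattern was seen in shares of cells. After each cell was thinned to 2400 UMIs, with shallower cells left out, 22.2% of pericytes (mean of 4 libraries), 17.2% of tendon fibroblasts 1 (n = 4) and 0.281% of endothelial cells 1 (n = 4) had a UMI of Cox4i2. Before thinning the shares over all cells were 57.0%, 39.3% and 3.16%, at median depths of 9188, 8824 and 7343 UMIs. For Ndufa4l2 the thinned shares were 72.6% in tendon fibroblasts 1, 39.7% in pericytes, 33.6% in tendon fibroblasts 2 (n = 3) and 2.85% in endothelial cells 1, and the unthinned shares were 90.2%, 78.5%, 66.7% and 7.37%. In red blood cells, which should lack both, 1 of 145 cells had a UMI of Cox4i2 and none of Ndufa4l2. For Cox4i2 the thinned share in red blood cells was 0.595%, above that in endothelial cells 1, so free RNA in the droplets cannot be told apart from expression there. For Ndufa4l2 endothelial cells 1 had 27 UMIs and a mean of 12.2 CPM, while the 0 UMIs of red blood cells and of nerve cells allow up to 4.09 and 3.10 CPM.

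Tendon fibroblasts 1 against endothelial cells 1 gave a result for the chain as a whole that depends on the scaling. The comparison used the TMM scaling of edgeR, which placed tendon fibroblasts 1 higher by 0.60 on the log2 scale than total counts do, and the 9 tendon fibroblast markers alone took 13.5% of the UMIs there. On this scale 8 of 79 tested nuclear genes rose and 10 fell, while 22.4% of all 5821 genes tested rose and 24.3% fell, and the median log2 fold change was -0.11 (all genes -0.02). With scaling to total counts 3 rose and 56 fell, and 3615 of all 5821 genes were called, with a median of -0.60. In CPM 59 of the 79 were lower in each of the 4 libraries and 3 were higher, against 3042 and 872 of all 5821 genes. For the 13 mitochondrial genes 2 rose under TMM, mt-Co3 and mt-Cytb, and none fell, whereas under total counts none rose and 5 fell.

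Single genes held on both scales. Besides Cox4i2 and Ndufa4l2, Ndufa13, a complex I subunit, rose in tendon fibroblasts 1, at 182 ± 22.9 against 128 ± 12.2 CPM (n = 4), higher in 4 of 4 libraries, with a log2 fold change of 1.08 ± 0.19 (edgeR adjusted p = 3.27e-05). It rose also in pericytes, at 280 ± 95.4 CPM, and in the nerve cells, at 350.3 ± 85.3 CPM. The genes that fell were Ndufc2, Ndufa8, Ndufa4 and Ndufa3, named above, then Ndufs8, Cox5a, Cox7b, Uqcrb, Ndufa7 and Atp5j, in that order of log2 fold change from -1.32 to -0.61. Complex II genes were lower in CPM in all 4 libraries for 4 of 4, and none was called under TMM.

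Beside the chain, 11 of 14 tested glycolysis genes rose in tendon fibroblasts 1 and none fell under TMM, with 6 higher and 2 lower in CPM in every library. Pkm (pyruvate kinase) stood at 400.4 against 147 CPM and Hk2 (hexokinase 2) at 72.7 against 1.79 CPM. Of 7 tested low-oxygen response genes 5 rose and none fell. Their sum was 0.101% ± 0.017 of UMIs in tendon fibroblasts 1 and 0.0368% ± 0.0124 in endothelial cells 1 (n = 4 each), and 0.0429% ± 0.0087 in pericytes. The largest was Egln3, an enzyme that marks the hypoxia-inducible factor for decay, at 156 against 1.61 CPM. Of 12 tested citric acid cycle genes 1 rose and 2 fell.

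Between the 2 main fibroblast populations few genes of the chain were called, although the nuclear sums did not overlap. Those sums were 0.878% to 0.949% of UMIs in tendon fibroblasts 1 and 1.09% to 1.25% in tendon fibroblasts 2. TMM scaling placed tendon fibroblasts 1 higher by 0.21 on the log2 scale than total counts do. Of 84 tested nuclear genes 2 rose in tendon fibroblasts 1 against tendon fibroblasts 2, Cox4i2 and Ndufa4l2, and none fell (8.12% of all 7043 genes tested were called, 4.33% higher and 3.79% lower; libraries 1, 3 and 4). No mitochondrial gene of 13 was called by edgeR or by DESeq2, and 0 had an unadjusted p under 0.05 in edgeR. Of all 84, with these 2 included, 52 were lower in CPM in all 3 libraries and 3 were higher, against 2098 and 946 of all 7043, and the median log2 fold change of the 84 was -0.20. Ndufa4, at 98.9 ± 27.9 against 189 ± 22.2 CPM without overlap, did not pass (edgeR adjusted p = 0.0718) and was called under 3 of 10 other settings. Here too glycolysis genes rose, 5 of 14 tested and none fell, and 4 of 8 tested low-oxygen genes rose and none fell, Egln3 and Bnip3 by 4.96 and 2.41 on the log2 scale. None of 14 citric acid cycle genes was called. Of 16 tissue dissociation genes 4 rose and none fell, and their sum was 0.716% ± 0.214 of UMIs in tendon fibroblasts 1 (n = 4) and 0.557% ± 0.159 in tendon fibroblasts 2 (n = 3); their part in the result was not tested.

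Endothelial cells 2 differed from endothelial cells 1 in the mitochondrial genes more than in the nuclear ones. Of the 13 mitochondrial genes 7 rose and none fell, while 10.5% of all 5126 genes tested rose and 7.74% fell. The rises were small, with log2 fold changes of 0.52 ± 0.11 for mt-Nd4 (edgeR adjusted p = 0.00305), 0.50 ± 0.10 for mt-Atp6, 0.50 ± 0.11 for mt-Co3 and 0.46 ± 0.10 for mt-Co1. They lay in 4 of 4 libraries for each of these genes, although the CPM values of mt-Atp6 and mt-Co3 overlapped between the groups because the libraries shifted together. The calls are fragile: the joint fit and the fit on cells thinned to equal depth gave 0 mitochondrial calls, and 4 remained without library 1 and without library 2. Of 76 tested nuclear genes 2 fell, Ndufc2 and Atp5j, and none rose. Endothelial cells 2 had a median depth of 8322.5 UMIs, against 7343 in population 1, and dissociation genes summed to 1.08% and 0.783%; their part in the result was not tested.

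In immune cells the chain was near the level of endothelial cells 1, with 3 libraries and a wide spread. Of 77 tested nuclear genes 2 rose and 4 fell, against 12.2% and 18% of all 5626 genes (30.2% in either direction), and none of the 13 mitochondrial genes was called by edgeR or DESeq2, with 0 at an unadjusted p under 0.05 in edgeR. Both rises were in complex II. Sdhb stood at 124, 92.8 and 158 CPM in libraries 1 to 3 of immune cells and at 62.3, 52.0 and 52.8 CPM in the same libraries of endothelial cells 1, with no overlap and a log2 fold change of 1.05 ± 0.38 (edgeR adjusted p = 0.0285). Sdhc followed with 1.10 ± 0.42 (adjusted p = 0.0420). The call of Sdhb was lost under 5 of 9 other settings and that of Sdhc under 4 of 8, the first without library 1 and both without library 3. The genes that fell were Ndufc2, Ndufa8, Atp5j and Ndufa3.

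The 3 nerve populations were summed to reach 4 libraries, which held 49, 59, 13 and 6 of these cells. Their mixture differed between libraries 1 to 4. Nerve cells 1 gave 15, 23, 10 and 1 cells, nerve cells 2 gave 19, 24, 3 and 0, and nerve cells 3 gave 15, 12, 0 and 5. The spread between these sums therefore includes the change of mixture, and the 4 sums are not replicates of 1 population. Of 75 tested nuclear genes 2 rose and 7 fell against endothelial cells 1, while 15.5% of all 5069 genes rose and 19.1% fell (34.6% in either direction). The genes that rose were Ndufa13 (log2 fold change 1.58 ± 0.29, edgeR adjusted p = 0.00217) and Ndufv2, a subunit at the NADH end of complex I. Those that fell included Uqcrb, a small subunit of complex III, at 116 ± 38.1 against 276 ± 17.5 CPM, a call lost without library 1 or 2, and Cox5a, a complex IV subunit. The nuclear calls were 3 in all without library 1, and 4 without library 2 or without library 3. Of the mitochondrial genes 2 rose, mt-Cytb (0.74 ± 0.21, adjusted p = 0.0204) and mt-Nd4 (0.65 ± 0.19, adjusted p = 0.0270). Neither stayed without library 1, 2 or 3.

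The sum hides a difference between the nerve populations, so nerve cells 1 were also fitted alone, a choice made after their values had been seen. In the libraries with at least 5 of these cells, 11 of 13 mitochondrial genes rose against endothelial cells 1 and none fell, in a comparison where 52.1% of 3743 genes were called in either direction. The share of all genes that rose was not computed. The same counts gave the high mitochondrial sum of nerve cells 1, so these calls are not separate evidence for it. The log2 fold changes were 1.52 for mt-Nd4l, 1.37 for mt-Cytb and 1.19 for mt-Nd4, down to 0.61 for mt-Co3, while mt-Co1 stood at 0.13 (edgeR adjusted p = 0.619) and mt-Nd6 at 0.63 (adjusted p = 0.235). The CPM values of mt-Cytb were 8353, 8479 and 8674 in libraries 1 to 3 of nerve cells 1, all above the highest library of endothelial cells 1 (4096 CPM), while mt-Co1 was at 9253, 9308 and 9115 CPM, within the range of 8501 to 10140 CPM of endothelial cells 1. Of 67 nuclear genes 4 rose (Ndufa13, Ndufv2, Sdhc and Ndufa5) and 10 fell. Nerve cells 1 had a lower depth, with a median of 4887 UMIs, and a sum of dissociation genes of 0.135%; their part was not tested.

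As background, red blood cells lose their mitochondria as they mature. Taken as a share of all UMIs, the chain was low in them, and the part of that loss in the values below was not tested. The nuclear sum was 0.0636% ± 0.0496 of UMIs and the mitochondrial sum 0.451% ± 0.256 (n = 4). All 71 tested nuclear genes and all 12 tested mitochondrial genes were lower in CPM than in endothelial cells 1 in 4 of 4 libraries, as were 3730 of all 3806 genes tested. The 6 red blood cell markers, hemoglobin among them, took 94.7% of the UMIs. With hemoglobin genes left out of the totals the nuclear sum was 1.03% and the mitochondrial sum 7.89%, so the low levels are relative to all RNA of the cell. The test depends on the scaling in the same way: with TMM 4 nuclear genes fell (23.9% of all genes fell and 2.86% rose) and no mitochondrial gene was called (0 at an unadjusted p under 0.05). With total counts all 71 and all 12 fell, but the median log2 fold change of all genes tested was -5.63 there (-1.72 with TMM). Falls under total counts are therefore not particular to the chain. DESeq2 called 66 and 12, given here without its share of all genes. The TMM scaling moved red blood cells by 4.11 on the log2 scale, and the 4 nuclear calls became 0 without library 1 or 2 and 1 without library 3 or 4. The 4 were Ndufc2, Ndufb3, Uqcrc2 and Uqcrb, the first 3 of them with 0 UMIs.

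Forms of complex IV subunits known from heart and skeletal muscle were rare. Cox7a1 had 34 UMIs in the whole table and Cox8b 48, of which 16 were in tendon fibroblasts 1 and 24 in tendon fibroblasts 2. Cox6b2, known from testis, had 45. In libraries 2 and 4 Cox8b is listed at 0. The usual forms were abundant in comparison, with 3003 UMIs for Cox7a2, 4978 for Cox8a and 2350 for Cox6b1 in the whole table. Symbols for Cox6a2 and Cox7b2 were not found among the rows analysed here.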

How the data were processed

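Single-cell RNA sequencing of mouse Achilles tendon gave 4 libraries. The authors deposited raw UMI counts per gene and cell, a natural log table, and the library and population name of each cell. The submitters' processing notes name Cell Ranger, Seurat 2.3.4, R 3.5.2 and mm10; how doublets were treated is not given in the sources used here, and no doublet caller was run. The deposited natural log values equalled ln(1 + 10000 × count / cell total) within 5.0e-10 and were not used further. The smallest cell had 1010 UMIs. Entries with a repeated gene name (4 of 15750, 0.0186% of UMIs) were left out.

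Counts were summed per library and population, keeping sums of 5 or more cells, and tested by quasi-likelihood in edgeR 4.0.16 (R 4.3.3, TMM scaling, filterByExpr, Benjamini-Hochberg over all genes tested, threshold 0.05) in at least 3 libraries. Library entered as a block, because both sums come from the cells of 1 library; the correlations of their deviations ran from -0.041 to 0.158. The filter on low counts keeps a gene that is high in either population. Comparisons against endothelial cells 1 share its sums. Population names rest on a grouping of cells that the authors made with the same counts. Shares of cells used cells thinned to 2400 UMIs, with 114 shallower cells left out. On simulated counts with a log2 change of 2, the pericyte comparison recovered 92.0% of changed genes and the immune comparison 66.1%. The simulation gave every gene the same dispersion and had no library effect. Smaller changes, like most of those of the chain, were not simulated.

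Named genes were, per comparison, the 4 largest called rises and falls with 1 direction in every library and 20 or more CPM on the higher side, the mitochondrial genes and isoform pairs; a few others were named after their values were seen. The members and lists were chosen with earlier results of these data known. Alternatives were DESeq2 1.42.0, no low-count filter, thinned cells, 10 cells per sum, no library block, a joint fit, leaving out each library and, added after seeing the data, scaling to total counts and nerve cells 1 alone. Intervals and limits cover counting error only.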

Additional observations from a re-analysis of the deposited data

Results flagged for a closer look

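In groups of 4 libraries, a library was picked out where its gap to the nearest other was above Dixon's 95% critical value (0.83 of the range). Of 60 groups tested 5 were picked out, and chance picks out about 1 in 20. Ndufc2 in library 3 of pericytes stood at 282 CPM, against 128 to 146 CPM in the other libraries. Ndufc2 in library 2 of endothelial cells 1 was the lowest, at 335 CPM, against 369 to 372 CPM. Cox4i2 stood at 16.8 CPM in library 3 of endothelial cells 2, against 0 to 2.62 CPM, and at 3.44 CPM in library 1 of red blood cells, against 0 in the others. These 2 groups held 2 of 74 and 1 of 145 cells with a UMI. In red blood cells the gap fills the whole range because the others are at 0. The rate of 1 in 20 does not apply to counts this low. For mt-Co1, library 4 of tendon fibroblasts 1 was at 8673 CPM, against 7150 to 7262 CPM in the other libraries.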

How the results depend on the processing

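Of 51 single-gene results 23 kept direction and call under every alternative run for them; over 559 single-gene values 472 kept both, 79 lost the call, 5 gained it and 3 reversed. The 3 were Cox4i1 in tendon fibroblasts 1 against endothelial cells 1, at a log2 fold change of 0.07, which was -0.067 with 10 cells per sum, -0.52 with total counts, and -0.067 (without library 2) to 0.18 when 1 library was left out. In that comparison 10 cells per sum is the same fit as leaving out library 2. In endothelial cells 2 and the nerve cells summed it is the same as leaving out library 4. The tallies of settings count each such fit 2 times. Calls of nuclear genes in pericytes (50) became 30 with DESeq2, 16 with thinned cells and 32 in the joint fit, with 21 to 59 when 1 library was left out; mitochondrial calls (12) became 1 in the joint fit, with 9 to 13 when 1 library was left out. In tendon fibroblasts 1 against endothelial cells 1, nuclear calls (18) became 59 with total counts and 15 to 19 when 1 library was left out; mitochondrial calls (2) became 0 with DESeq2, thinned cells or the joint fit, 5 with total counts, and 0 to 3 when 1 library was left out. Against tendon fibroblasts 2, nuclear calls (2) became 1 without the replicate block and 1 to 2 when 1 library was left out. In endothelial cells 2, nuclear calls (2) became 1 with DESeq2 or the joint fit, 4 with total counts and 1 to 3 when 1 library was left out; mitochondrial calls (7) became 4 with DESeq2 or no low-count filter, 0 with thinned cells or the joint fit, 3 without the replicate block and 4 to 7 when 1 library was left out. In immune cells, nuclear calls (6) became 3 with DESeq2 or thinned cells and 3 to 8 when 1 library was left out. In the nerve cells summed, nuclear calls (9) became 14 with nerve cells 1 alone and 3 to 12 when 1 library was left out; mitochondrial calls (2) became 0 with no low-count filter or the joint fit, 1 with total counts, 11 with nerve cells 1 alone and 0 to 3 when 1 library was left out. In red blood cells, nuclear calls (4) became 66 with DESeq2, 7 with no low-count filter, 9 without the replicate block, 15 in the joint fit, 71 with total counts and 0 to 1 when 1 library was left out; mitochondrial calls (0) became 12 with DESeq2 or total counts. Of 150 summed levels 140 moved by less than 1 SD and 10 by more. With the mean over cells, mitochondrial sums became 5.80% in endothelial cells 1, 5.26% in tendon fibroblasts 1, 5.42% in tendon fibroblasts 2, 8.96% in pericytes and 7.66% in nerve cells 1, and the nuclear sum 0.868% in tendon fibroblasts 1. With mitochondrial genes left out of the totals, nuclear sums became 1.47% in endothelial cells 1 and 0.947% in tendon fibroblasts 1. In red blood cells, with hemoglobin left out, the nuclear sum was 1.03% and the mitochondrial sum 7.89%. The cause of these changes was not tested. The counts of calls in this section are given without the share of all genes called under the same setting. With 10 cells per sum, immune cells and tendon fibroblasts 2 kept under 3 libraries and were not run.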
